A study of Mus musculus with 8 samples.

Results

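The data describe how strongly 2 lesion antibodies stained DNA probes that carry 1 TC step before an adenine and no other pair of neighbouring pyrimidines. Each array spot holds a synthetic 60-base DNA probe, and 122095 different sequences were printed. Probes were kept if they ended in the commonest last 24 bases, which left 122086. Runs of at least 2 neighbouring pyrimidines were then counted on the printed strand and on its complement. The 412 probes described here had exactly 1 run over both strands, the run was TC read 5′ to 3′ on its own strand, and the next base on that strand was an adenine. The rule uses no measured value, though it was chosen with earlier results of these data known. The base before the step was A or G by construction, so the probes fall into 4 classes: 118 with ATCA on the printed strand, 86 with GTCA on the printed strand, 124 with ATCA on the complement and 84 with GTCA on the complement. The sequences are designed and have no place in a genome.

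The study stained UV-treated and untreated arrays whose design covers all short sequences (a universal array). Mouse anti-6-4PP antibody at 1:80 was used on 2 UV arrays and 2 non-UV arrays, and mouse anti-CPD antibody at 1:400 likewise on 2 UV arrays and 2 non-UV arrays. The mouse in the organism label is the host of the antibodies, and both carried the dye Alexa 488 as read-out. Neither the UV dose nor the staining steps, and not how the second strand was made, are stated in the sources used here. The labels number the arrays of a group but do not call them separate experiments, so the p-values measure the spread between these arrays. With 2 arrays in each group, the number of arrays limits the precision.

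UV light joins neighbouring pyrimidines of one strand into cyclobutane pyrimidine dimers (CPDs) and pyrimidine(6-4)pyrimidone photoproducts (6-4PPs). In a CPD a ring links the bases, whereas a 6-4PP has a single bond between them and distorts the helix more. TC and TT steps are known as favoured sites of 6-4PPs, and TT steps as favoured sites of CPDs. A probe with a lone step shows the signal of that step without neighbours that could also carry a lesion, and 550 probes with no step at all give the signal of each array without a site for either lesion.

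All 412 probes share their last 38 bases, which hold no dipyrimidine step on either strand and are shown because they are the constant context of every value:
shared 3′ end: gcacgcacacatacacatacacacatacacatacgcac
The first 22 bases vary. The following probe stands for the printed ATCA class, with the 4 probes that differ from it by 1 base, because these sets show what a single base does. Capitals mark the step with the base on either side, and each substitution gives the base of the first probe, its position counted from 1 at the printed 5′ end and the base of the other probe.
printed ATCA: tatgcATCAcgtgcgtatgtat
A6G, printed GTCA: tatgcGTCAcgtgcgtatgtat
A9G, printed ATCG: tatgcATCGcgtgcgtatgtat
C8T, printed ATTA: tatgcATTAcgtgcgtatgtat
T7C, printed ACCA: tatgcACCAcgtgcgtatgtat
A second set has the step on the complement, where TGAT on the printed strand reads ATCA on the opposite one.
complement ATCA: tatgcaTGATgtgcgtatgtat
T10C, complement GTCA: tatgcaTGACgtgcgtatgtat
T7C, complement ATCG: tatgcaCGATgtgcgtatgtat
G8A, complement ATTA: tatgcaTAATgtgcgtatgtat
A9G, complement ACCA: tatgcaTGGTgtgcgtatgtat

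The step began between positions 7 and 18 of the probe, with a median of 11. The share of G and C in the first 25 bases, the stretch that varies over all kept probes, ran from 28 to 64 percent with a median of 40. The sequences are close relatives: 399 of the 412 differ from another of them by 1 base, 219 begin with tatgc and 193 with cgtatgc. Most, 388, were printed on 1 spot each. The other 24 were printed on 10 to 41 spots, 20 of them in the Myc design family and 4 in the GATA family named in the files. Over these 24 probes the median coefficient of variation between spots was 12.1 to 18.2 percent in the 4 classes on the 6-4PP UV arrays.

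Both antibodies' arrays shared spot-level deviations, which bears on every comparison between them. The log2 difference between replicate 1 and replicate 2 of a sequence correlated at 0.71 between the 6-4PP UV and CPD UV arrays and at 0.77 between the 6-4PP non-UV and CPD non-UV arrays, over 122095 sequences. Between UV and non-UV arrays the same correlation lay between -0.0032 and 0.00079. The labels do not say whether the antibodies shared arrays, and the cause was not tested. In a fit with the antibody pairs as a block, added after the data had been seen, the difference between antibodies over all 412 probes stayed at log2 0.73 with an adjusted p of 3.17e-05 (limma). Saturated spots numbered 89 to 288 per array, of which 1 held a probe with a lone TC step before A.

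With the 6-4PP antibody, UV raised the signal of probes with a lone TC step before A, and most of the rise was in the ATCA classes. The median adjusted intensity of the 412 probes was 3689 and 3506 on the UV arrays, against 1514 and 1252 on the non-UV arrays. The no-step probes had 1954 and 1951 on the same UV arrays, against 1497 and 1246 on the non-UV arrays. UV and non-UV arrays did not overlap for either set, and on the non-UV arrays the step-bearing median was 1.01 times the no-step median. As log2 above the no-step median of the same array, the UV effect of the 412 probes was 0.87 (SE 0.027, limma adjusted p = 2.24e-08). Counted over arrays, the UV to non-UV ratio of the class median was 2.60, and the exact two-sided permutation p was 0.333, the smallest that 2 against 2 arrays can give.

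With the CPD antibody the same probes were near the no-step level. Their median intensity was 1794 and 1737 on the UV arrays, against 1210 and 1040 on the non-UV arrays, while the no-step probes had 1617 and 1603 on the UV arrays, against 1219 and 1048 on the non-UV arrays. The UV effect relative to no-step was log2 0.14 (SE 0.027, limma adjusted p = 0.0024). The UV effect was larger with the 6-4PP antibody than with the CPD antibody by log2 0.73 (SE 0.038, adjusted p = 8.07e-07 for the interaction). With quantile normalization that difference was 0.14 and did not pass. The antibodies were used at different dilutions, so this difference compares 2 stainings and not amounts of lesion.

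The direction of these values depends on the level they are set against. The median of all sequences, most of which hold several steps, had a UV effect of log2 1.71 above no-step with the 6-4PP antibody and 1.11 with the CPD antibody. Relative to that array median, the UV effect of the 412 probes was -0.90 with the 6-4PP antibody and -0.997 with the CPD antibody. All values given next are relative to the no-step probes.

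Sequence by sequence, the 6-4PP UV effect passed an adjusted p of 0.05 in the upward direction in 274 of the 412 probes (66.5 percent), where 86 percent of all 122095 sequences did so. It passed downward in 4, against 0.203 percent of all sequences and 23 of the 550 no-step probes; this count was 1 without either 6-4PP UV array, 7 without either 6-4PP non-UV array and 2 without either CPD non-UV array. The share by class was uneven: 117 of 118 printed ATCA probes, 120 of 124 complement ATCA probes, 27 of 86 printed GTCA probes and 10 of 84 complement GTCA probes were called higher, against 18 of 550 no-step probes. The median UV effect of the 412 was log2 0.86, below the 1.71 of all sequences.

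With the CPD antibody, 68 of the 412 (16.5 percent) were called higher, where 70.5 percent of all sequences were, and 8 were called lower, where 0.473 percent were, as were 12 of the 550 no-step probes. By class these were 42 of 118 printed ATCA, 16 of 124 complement ATCA, 8 of 86 printed GTCA and 2 of 84 complement GTCA probes, against 15 of 550 no-step probes. The 68 calls fell to 44 without CPD UV replicate 1, to 28 without CPD non-UV replicate 1 and to 24 without CPD non-UV replicate 2. The 8 downward calls were 4 without either 6-4PP UV array. The difference of the UV effects, 6-4PP minus CPD, was called positive in 206 probes and negative in 0 (36.9 and 10.6 percent of all sequences), and the positive calls were 109 printed ATCA, 93 complement ATCA, 4 printed GTCA and 0 complement GTCA probes.

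Class by class, printed ATCA was the brightest of the 4 with both antibodies. Its median intensity on the 6-4PP arrays was 7352 and 7593 after UV, against 1529 and 1291 without UV. The mean after UV was 7472 ± 170.5, against 1410.1 ± 169 without UV (SD, n = 2 each), a ratio of 5.30. All 118 probes exceeded the no-step median on both 6-4PP UV arrays, and on the mean of the arrays they ran from 4335 to 17047 with a median of 7454. On the CPD arrays the class had 1949 and 1934 after UV, against 1215 and 1045 without UV. On the UV arrays the excess over no-step was thus 5523 intensity units with the 6-4PP antibody and 328 with the CPD antibody. The UV effects in the limma fit of classes were log2 1.89 (SE 0.021, adjusted p = 1.78e-10) and 0.27 (SE 0.021, adjusted p = 1.94e-05).

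Complement ATCA came next with the 6-4PP antibody. Its median intensity was 4071 and 3851 on UV arrays, against 1498 and 1249 on non-UV arrays. Its excess over no-step on the UV arrays was 1988 units. All 124 probes lay above the no-step median on both UV arrays. On the CPD arrays it had 1749 and 1709.7 after UV, against 1211 and 1036 without UV. The limma values were log2 1.02 (SE 0.027, adjusted p = 9.34e-09) for 6-4PP and 0.12 (adjusted p = 0.0072) for CPD.

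The GTCA classes were close to the no-step probes with either antibody. Printed GTCA had 2303 and 2330.1 on the 6-4PP UV arrays, against 1525 and 1209 on the non-UV arrays, and complement GTCA had 2107 and 2099.6 on the UV arrays, against 1502 and 1246 on the non-UV arrays. On the CPD UV arrays printed GTCA had 1749 and 1686 and complement GTCA 1688 and 1639, against 1205 and 1040 and against 1206 and 1035 on the non-UV arrays. Both still passed the test for 6-4PP, at log2 0.25 (adjusted p = 8.09e-05) and 0.11 (adjusted p = 0.00091), but not after quantile normalization (0.15 and 0.047). For CPD their values were 0.11 (adjusted p = 0.011) and 0.064 (adjusted p = 0.015). Neither CPD call held without CPD UV replicate 1 (0.087 and 0.049), CPD non-UV replicate 1 (0.10 and 0.065) or CPD non-UV replicate 2 (0.11 and 0.062). In this fit over 56 classes and subclasses, 82.1 percent were called higher for 6-4PP, 75 percent for CPD and 41.1 percent for the difference between antibodies.

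The difference between antibodies, 6-4PP minus CPD, was log2 1.62 for printed ATCA, 0.90 for complement ATCA and 0.15 for printed GTCA, with limma adjusted p of 5.92e-09, 2.56e-07 and 0.014. The printed GTCA value did not pass with no centring (0.15, adjusted p = 0.855) and was -0.054 with quantile normalization. For complement GTCA it was 0.041 (SE 0.025, adjusted p = 0.20). Among the 32 lone-step classes, ordered by signal on the 6-4PP UV arrays, printed ATCA was number 3, complement ATCA number 6, printed GTCA number 12 and complement GTCA number 19. In the order by CPD UV signal the same classes were numbers 11, 17, 19 and 24. The neighbours of printed ATCA in the 6-4PP order were printed ATTG at 9394 ± 242 and printed ATCG at 5496 ± 2.35 (SD, n = 2). Both lay outside the spread of its class median between arrays (7472 ± 170.5). Single printed ATCA probes ran from 4335 to 17047, a range that holds both neighbours' class values. The neighbours of printed GTCA there were printed GTTA at 2437 ± 10.8 and printed GTTG at 2287 ± 62.1, and GTTG overlapped it.

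Among the contrasts within the 412 probes, the base before the step made the widest difference with the 6-4PP antibody. On the printed strand ATCA exceeded GTCA by log2 1.64 with the 6-4PP antibody (SE 0.037, 3.12-fold), and on the complement by 0.91. The limma adjusted p-values were 1.60e-62 and 2.18e-41. Over the 23 class differences tested, 65.2 percent were called positive and 13 percent negative for 6-4PP, 17.4 and 30.4 percent for CPD, and 69.6 and 4.35 percent for the difference between antibodies; the p-values rest on a spread that limma pooled over differences with shared probes, 92 degrees of freedom, and are smaller than 8 arrays alone can support. From the spread of each difference itself, 4 degrees of freedom, they were 1.72e-05 and 2.59e-05. From here on this unpooled value follows the pooled one where both are given. An adjusted p without a label rests on limma's pooled spread.

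All 118 printed ATCA probes were above all 86 printed GTCA probes in mean 6-4PP UV signal, and 122 of 124 complement ATCA probes were above all 84 complement GTCA probes. In pairs of probes that differ by that base alone, the A probe was brighter on both 6-4PP UV arrays in 82 of 82 printed pairs and in 80 of 81 complement pairs. The example set shows the size: tatgcATCAcgtgcgtatgtat had 7257 and 7640.2 on the 6-4PP UV arrays and its A6G partner 2217 and 2214, against 1570.1 and 1452 and against 1581 and 1395 on the non-UV arrays. For the complement, tatgcaTGATgtgcgtatgtat had 4182 and 3800.2 on the UV arrays and its T10C partner 2087 and 2621. The non-UV values were 1532 and 1163 for that probe and 1392 and 1084 for its partner, so in both pairs the partners' non-UV values overlapped.

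With the CPD antibody the base before the step made a smaller difference. Printed ATCA exceeded printed GTCA by log2 0.17 (SE 0.037, adjusted p = 6.64e-05 pooled, 0.030 unpooled), and 43 of 82 single-base pairs were higher for A on both CPD UV arrays and 9 lower. It was 0.081 and did not pass with quantile normalization. On the complement the difference was 0.053 with a 95 percent interval from -0.021 to 0.13 (adjusted p = 0.24). The difference between antibodies in this contrast was log2 1.47 on the printed strand (adjusted p = 4.72e-46 pooled, 4.80e-05 unpooled) and 0.86 on the complement (1.85e-28 pooled, 7.77e-05 unpooled). With G and C share and step position as terms of a regression, the 6-4PP values were 1.72 and 0.99.

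Steps on the printed strand gave more 6-4PP signal than the same steps on the complement. Printed ATCA exceeded complement ATCA by log2 0.88 (SE 0.037, adjusted p = 3.03e-40 pooled, 0.00013 unpooled), and printed GTCA exceeded complement GTCA by 0.15 (adjusted p = 0.00021 pooled, 0.0068 unpooled), which was 0.098 and not past the threshold with quantile normalization. Where a printed and a complement probe carry the same 10 bases around the step on the step's own strand, the printed one was brighter on both 6-4PP UV arrays in 172 of 185 pairs for ATCA and in 40 of 83 for GTCA, and dimmer in 1 and 10. These pairs were formed after the data had been seen and reuse probes (69 printed and 84 complement ATCA probes), and gave 0.75 and 0.14 as the strand differences. One such pair is shown because both probes read tgcATCAtgc on the strand of the step:
printed: tatgcATCAtgcacgtatgtat
complement: tatgcaTGATgcatgtatgtat
The printed probe had 5362 and 6194 on the 6-4PP UV arrays and the complement probe 3605 and 3007.5, against 1587 and 2071 and against 1485 and 1378 on the non-UV arrays. With the CPD antibody the strand difference was 0.16 for ATCA (adjusted p = 0.00015 pooled, 0.0503 unpooled) and 0.044 for GTCA (95 percent interval -0.030 to 0.12, adjusted p = 0.33). A step on the complement also faces the other way along the probe, and strand and orientation cannot be told apart here.

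The base after the step went with 6-4PP differences of log2 0.42 at most. Probes with A after the step were compared with the matching classes in which G follows, that is, with a TCG. With the 6-4PP antibody, printed ATCA had 7352 and 7593 on the UV arrays and printed ATCG 5494 and 5498, against 1529 and 1291 and against 1549.9 and 1234 on the non-UV arrays. The difference was log2 0.42 (SE 0.037, adjusted p = 1.36e-18 pooled, 0.00098 unpooled), and 93 of 112 single-base pairs were higher for A on both UV arrays and 1 lower. On the complement it was 0.18 (adjusted p = 6.78e-06 pooled, 0.0045 unpooled), with 68 of 113 pairs higher and 14 lower. With quantile normalization these 2 differences were 0.19 and 0.094 and did not pass. After G the difference was 0.093 on the printed strand (adjusted p = 0.019 pooled, 0.14 unpooled), a call that was lost without either 6-4PP UV array (0.087 without replicate 1 and 0.099 without replicate 2) and without 6-4PP non-UV replicate 2 (0.039). On the complement after G it was 0.027 (95 percent interval -0.047 to 0.10).

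With the CPD antibody the same comparison passed in 1 of 4 cases, printed ATC, at log2 0.14 (SE 0.037, adjusted p = 0.00088 pooled, 0.048 unpooled), and it did not pass without CPD non-UV replicate 1 (0.12, adjusted p = 0.054). The other 3 CPD differences were 0.080 for printed GTC, 0.049 for complement ATC and 0.032 for complement GTC, none past the threshold (limma adjusted p 0.068, 0.27 and 0.45).

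Set against a lone TT between the same bases, TC gave less signal with both antibodies on the printed strand after A, and the gap was wider with the CPD antibody. Printed ATCA had 7352 and 7593 on the 6-4PP UV arrays, against 13809 and 14227 for printed ATTA, and 1949 and 1934 on the CPD UV arrays, against 12896 and 11739. The TC minus TT difference was log2 -0.92 for 6-4PP (SE 0.037, adjusted p = 1.96e-41 pooled, 0.00011 unpooled) and -2.66 for CPD (SE 0.037, adjusted p = 4.98e-81 pooled, 9.97e-06 unpooled), and the gap between antibodies was 1.75 (7.03e-52 pooled, 4.80e-05 unpooled). On the complement after A the values were -0.27 (adjusted p = 4.34e-10 pooled, 0.019 unpooled) for 6-4PP and -1.17 (4.43e-50 pooled, 0.00028 unpooled) for CPD. The 6-4PP value was -0.25 and did not pass with quantile normalization. It was 0.085 with the dimmest 25 percent of sequences left out, a filter on the signal of the probes themselves. Of 112 printed single-base pairs, TC was the dimmer on both UV arrays in 109 with the 6-4PP antibody and in 110 with the CPD antibody. In the example set tatgcATCAcgtgcgtatgtat had 1861 and 1948 on the CPD UV arrays, against 15079 and 11736 for its C8T partner, and the partner's 6-4PP UV values were 16599.7 and 17281.

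After G on the printed strand, TC and TT probes differed with the CPD antibody, and the gap between antibodies was log2 1.88 (limma adjusted p = 3.27e-54 pooled, 4.80e-05 unpooled). Printed GTCA and printed GTTA were within log2 -0.058 of each other for 6-4PP (95 percent interval -0.13 to 0.016, adjusted p = 0.15), with 2303 and 2330.1 against 2429 and 2444 on the UV arrays. That difference was -0.096 (adjusted p = 0.039) without 6-4PP non-UV replicate 2. For CPD it was -1.93 (adjusted p = 7.41e-69 pooled, 9.97e-06 unpooled), with 1749 and 1686 against 6875 and 6294, and TC was dimmer in 80 of 80 pairs. On the complement after G it was 0.11 for 6-4PP (adjusted p = 0.0080 pooled, 0.067 unpooled), lost without 6-4PP UV replicate 1 (0.081) or 6-4PP non-UV replicate 2 (0.081), and -0.71 for CPD (8.09e-33 pooled, 0.00028 unpooled).

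Set against CT and CC steps, the lone TC was the brighter with the 6-4PP antibody. Printed ATCA had 7352 and 7593 on the 6-4PP UV arrays, against 3004 and 3049 for printed ACTA and 2222 and 2301 for printed ACCA. The differences were log2 1.28 over CT (SE 0.037, adjusted p = 2.40e-53 pooled, 6.52e-05 unpooled) and 1.71 over CC (SE 0.037, adjusted p = 9.03e-64 pooled, 1.72e-05 unpooled). In 112 of 114 single-base pairs TC was brighter than CC on both arrays. On the complement after A they were 0.89 and 0.91, and after G 0.18 for both on the printed strand and 0.048 (95 percent interval -0.026 to 0.12) and 0.10 on the complement, the last not past the threshold in single-base pairs (0.060), with means (0.072), with unadjusted intensity (0.058) or in the regression (0.076). With quantile normalization the differences after G did not pass (0.21 and 0.16 on the printed strand, 0.049 for CC on the complement).

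With the CPD antibody the lone TC was below CT in all 4 comparisons, of which 3 were called, and it was near CC. Printed ATCA had 1949 and 1934 on the CPD UV arrays, against 2498 and 2320.4 for printed ACTA and 1742 and 1712 for printed ACCA. TC minus CT was log2 -0.31 after A on the printed strand (SE 0.037, adjusted p = 2.98e-12 pooled, 0.016 unpooled), -0.15 after G there, and -0.097 after A on the complement, the last not past the threshold without any 1 of the 4 CPD arrays (-0.089 to -0.11). After G on the complement it was -0.071 (adjusted p = 0.10 pooled, 0.048 unpooled). That value passed with means (-0.15), in the regression (-0.15) and with the arrays of 1 antibody alone (-0.071). With quantile normalization none of the 3 calls was kept (-0.22, -0.13 and -0.11), and the call after A on the complement was also lost with means (-0.029) and in the regression (-0.028). TC minus CC was 0.18 after A on the printed strand (SE 0.037, adjusted p = 1.60e-05 pooled, 0.029 unpooled), with 70 of 114 pairs higher and 14 lower, and was 0.27 without a call after quantile normalization. The other 3 TC minus CC values, 0.061 for printed G, 0.027 for complement A and 0.040 for complement G, did not pass.

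Within the ATCA classes the bases one step further out also went with the 6-4PP signal. These outer bases are C or T by construction, and their comparison was added after the values had been seen. On the printed strand, CATCAC probes (38) had 8619 and 9782 on the 6-4PP UV arrays, and TATCAT probes (22) had 5608 and 5707. Outer C exceeded outer T by log2 0.37 on the 5′ side (SE 0.028, limma adjusted p = 3.57e-06 pooled, 0.00047 unpooled). On the 3′ side it did so by 0.25 (SE 0.023, adjusted p = 9.20e-06 pooled, 0.00038 unpooled). On the complement the differences were 0.19 (adjusted p = 3.06e-05 pooled, 0.00038 unpooled) and 0.27 (6.54e-05 pooled, 0.0054 unpooled). CATCAC probes there (21) had 5067 and 4756 and TATCAT probes (38) had 3461 and 3459. Single-base pairs gave 0.68 and 0.43 on the printed strand, and 29 of 32 and 41 of 48 pairs were higher for C on both arrays. With quantile normalization none of these 4 passed (0.37 and 0.17 on the printed strand, 0.11 and 0.18 on the complement, adjusted p 0.39 for the first and 0.53 for the others).

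In the GTCA classes none of the 4 outer-base differences passed for 6-4PP (0 of the 4 had an unadjusted p under 0.05), and for CPD none of the 8 passed in limma (1 of the 8 had an unadjusted p under 0.05). In single-base pairs, however, 2 of the 6-4PP GTCA differences passed, 0.079 for the 3′ side of printed GTCA (adjusted p = 0.029) and 0.10 for the 5′ side of complement GTCA (adjusted p = 0.0085). The printed one also passed with means (0.11) and in the regression (0.16), and the complement one without 6-4PP UV replicate 1 (0.0995). Over class medians of both ATCA and GTCA, 4 of 8 or 50 percent passed for 6-4PP, and for the difference between antibodies 62.5 percent were called positive. The share of G and C went with the 6-4PP UV signal inside printed ATCA (Pearson r 0.43, Spearman rho 0.46 over 118 probes) and less inside complement ATCA (0.24 and 0.33 over 124). In the GTCA classes r was -0.017 on the printed strand and -0.10 on the complement. These probes share arrays and most of their bases, and an outer C also raises the G and C share, so the 2 measures are not independent.

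On the printed strand no difference by the position of the step was called between class medians, though means and a regression gave a call for printed ATCA. Printed ATCA had class medians of 7196 and 7524 on the 6-4PP UV arrays at position 7 (34 probes), 7167 and 7636 at position 9 (32), 7613 and 8403 at position 11 (32) and 7216 and 7462 at position 13 (18). Steps up to position 12 minus later ones gave log2 0.013 (95 percent interval -0.061 to 0.087, adjusted p = 0.73) for printed ATCA and -0.035 for printed GTCA (adjusted p = 0.39). With class means in place of medians the printed ATCA value was 0.11 (limma adjusted p = 0.022). With the G and C share as a term of a regression it was 0.27 (adjusted p = 3.78e-07).

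On the complement, ATCA steps at positions 8 and 10 had the lowest 6-4PP signal. UV-array medians were 3442 and 3428 at position 8 (18 probes), 4062 and 3693 at position 10 (33), 4562 and 4282 at position 12 (33) and 4299 and 4047 at position 14 (38). Position 12 was thus the brightest of these 4. Steps up to position 12 minus later ones gave log2 -0.12 (SE 0.037, limma adjusted p = 0.0037 pooled, 0.0055 unpooled). However, the value was 0.12 with the dimmest 25 percent of sequences left out, a filter on the signal of the probes themselves. It did not pass with means (-0.071), with quantile normalization (-0.045) or with the G and C share in a regression (0.0013, adjusted p = 0.98). For complement GTCA only 2 probes lay past position 12, so no difference was computed.

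Single probes spread widely within a class. Named by rule, the brightest and dimmest of each class by mean 6-4PP UV signal are shown with their step in capitals.
printed ATCA, highest: tatgcATCAcgcgtgtatgtat
printed ATCA, lowest: tatgcATCAtacgcgtatgtat
complement ATCA, highest: cgtatgcaTGATgtatatgtat
complement ATCA, lowest: tatgcaTGATacacgtatgtat
printed GTCA, highest: cgtatgcacgtGTCAtatgtat
printed GTCA, lowest: cgtatgcatacGTCAtatgtat
complement GTCA, highest: tatgcatgTGACgtgtatgtat
complement GTCA, lowest: cgtatgcaTGACacgtatgtat
Since they are the ends of each class on these values, they are a description. Both brightest ATCA probes were far higher on replicate 1 than on replicate 2 of the 6-4PP UV arrays. The printed one was above its class median of 7593 on replicate 2 as well. The printed one, tatgcATCAcgcgtgtatgtat, had 24494 and 11864 on the 6-4PP UV arrays and 14456 and 2562 on the CPD UV arrays, high on replicate 1 of both antibodies. The complement one, cgtatgcaTGATgtatatgtat, had 83116 and 3458 on the 6-4PP UV arrays, and its replicate 1 value comes from the saturated spot. The adjusted intensity can exceed the ceiling of the scanner because it is divided by the local median.

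The other ends agreed better between arrays. The dimmest printed ATCA probe, tatgcATCAtacgcgtatgtat, had 5281 and 3558 on the 6-4PP UV arrays, against 1520.1 and 1706 on the non-UV arrays. The brightest printed GTCA probe, cgtatgcacgtGTCAtatgtat, had 4169.8 and 3726 after UV, against 1494 and 1153 without UV, and its limma UV effect was log2 1.07 (adjusted p = 0.00015). The dimmest printed GTCA probe, cgtatgcatacGTCAtatgtat, had 1740.1 and 1774 after UV, against 1471 and 1128 without UV, below the no-step median on both UV arrays. Of the complement probes, tatgcaTGATacacgtatgtat had 2530.0 and 2450.1 after UV, tatgcatgTGACgtgtatgtat 3202 and 2494, and cgtatgcaTGACacgtatgtat 1557 and 1527.

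A further 6 probes were named by the rule for their CPD signal or for the difference between antibodies. They too are ends picked on these values, so their p-values are a description.
highest CPD signal: tatgcacATCAcatgtatgtat
lowest CPD signal: tatgcaTGACgtgtgtatgtat
second lowest CPD signal: cgtatgcgtgcgTGATatgtat
second largest 6-4PP minus CPD: cgtatgcgcATCAcgtatgtat
smallest 6-4PP minus CPD: cgtatgcgtaTGACgtatgtat
second smallest 6-4PP minus CPD: cgtatgcgTGACatatatgtat
The probe with the highest CPD signal had 17352 and 2337 on the CPD UV arrays, so it too was far higher on replicate 1. The second highest was tatgcATCAcgcgtgtatgtat, above, and the largest difference belonged to cgtatgcaTGATgtatatgtat. The probe cgtatgcgcATCAcgtatgtat was similar on the 2 UV arrays of each antibody, with 12646 and 12132 on the 6-4PP UV arrays and 2006 and 1925 on the CPD UV arrays, against 1466 and 981 and against 1318 and 1040 on the non-UV arrays. Its difference between antibodies was log2 2.62 (adjusted p = 0.00015). The probe cgtatgcgtgcgTGATatgtat had 3284 and 3282 on the 6-4PP UV arrays and 1264 and 1184 on the CPD UV arrays, with UV effects of log2 0.98 for 6-4PP and -0.40 for CPD (adjusted p = 0.0052 for the second). The smallest differences, log2 -0.36 and -0.35, did not pass (adjusted p = 0.48 and 0.59).

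The 2 UV arrays correlated more over printed ATCA probes with the 6-4PP antibody than with the CPD antibody. The correlation of log2 values between the 2 UV arrays was 0.78 over 118 printed ATCA probes with the 6-4PP antibody and 0.28 with the CPD antibody. It was 0.29 for complement ATCA, 0.15 for printed GTCA and 0.39 for complement GTCA with the 6-4PP antibody, and on the non-UV arrays of printed ATCA 0.091. These are Pearson values, and those of the ATCA classes include the probes above that were far higher on 1 array. The points share probes and arrays, so these values describe how far single probes can be read: in the other classes and on the CPD UV arrays the correlation was at most 0.47.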

How the data were processed

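The 8 array files (4 groups of 2) were used as deposited. Per the file headers, each holds Alexa 488 intensity on a linear scale for 180880 spots, of which 175866 have a printed sequence. The deposited normalised intensity equalled the scanner intensity in every spot. The adjusted intensity was that value times a constant of the array, divided by the local median, a relation checked from the values. No software for these steps is stated in the sources used here.

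Adjusted intensity was turned into log2, averaged over the spots of a sequence and set against the median of 550 sequences without a step on the same array. Class values were medians over at least 10 sequences. UV effects and the difference between antibodies were fitted to all 8 arrays with limma 3.58.1 (lmFit, eBayes, R 4.3.3). The p-values were Benjamini-Hochberg adjusted over 122095 sequences, 56 classes, 23 class differences or 8 outer-base differences, at a threshold of 0.05. Python 3.11.15 with numpy 2.4.6, pandas 2.3.3 and scipy 1.17.1 did the rest. The label numbers were not treated as pairs. Probes were named as the extremes of each class in 6-4PP UV signal, the 2 highest and 2 lowest in CPD UV signal, and the 2 largest and 2 smallest differences between antibodies. The probes, classes and tests were chosen with earlier results of these data known.

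On simulated data the class differences of log2 0.1 and 0.25 were called in 4 of 4 and 8 of 8 cases for 6-4PP (20 rows). There were 0 of 8 false calls. Single sequences were called in 0 of 50 cases at log2 0.5, 11 of 50 at 1.0, 39 of 50 at 2.0 and 45 of 50 at 3.0. Noise was drawn separately for each probe and array, so these rates leave out the deviations that the real arrays shared. In the simulation 121895 of 122095 sequences held no change, whereas 86 percent of the real sequences were called higher for 6-4PP. The adjusted p was therefore a stricter cutoff in the simulation. Its single-sequence rates do not carry over to the counts of probes called. Alternatives covered the intensity column, centring, quantile normalization, offset, saturated and dim spots, moderation, arrays left out or fitted by antibody, blocks, means, a linear scale, composition and single-base pairs. Spots without a printed sequence were left out.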

Additional observations from a re-analysis of the deposited data

Results flagged for a closer look

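In 4 results the UV effect differed between the 2 antibodies by a test of the difference itself, the interaction term of the limma fit. Over all 412 probes it was log2 0.73 higher with the 6-4PP antibody than with the CPD antibody (adjusted p = 8.07e-07). It was 1.62 for printed ATCA (adjusted p = 5.92e-09), 0.90 for complement ATCA (adjusted p = 2.56e-07) and 0.15 for printed GTCA (adjusted p = 0.014). The printed GTCA difference did not pass with no centring (adjusted p = 0.855), and with quantile normalization it was -0.054. As log2 above the no-step probes, both 6-4PP UV arrays were above both CPD UV arrays in each. The antibodies' dilutions differed, and the share of this difference that the dilutions account for was not tested. Groups of 2 arrays are too small for a check of single outlying arrays.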

How the results depend on the processing

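Over 114 results and 25 other settings, 46 results kept their direction and their side of the threshold under every setting run, and 75 changes of sign were in values past the threshold in neither setting. With the 6-4PP antibody, the UV effects of printed ATCA and complement ATCA passed in every setting run for them, except where named here. So did their differences from the GTCA classes and between strands. Not every result was run in every setting. The setting without the dimmest 25 percent of sequences held fewer results than most, and no difference from a GTCA class is given for it. The depth limit is the 2 arrays per group and the low excess over no-step of the GTCA classes and of all CPD values.

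The share of all sequences called is given for the main setting only, so the counts in this section show only how far the calls move. With the array median as reference, 31 probes were called higher and 288 lower for 6-4PP, 0 higher and 398 lower for CPD, and 119 positive and 71 negative for the difference between antibodies. The log2 values then became, for 6-4PP, -0.90 (all 412), -0.75 (complement ATCA), -1.66 (complement GTCA) and -1.51 (printed GTCA). For CPD they were -0.997, -1.02, -1.08 and -1.03 for the same sets and -0.87 for printed ATCA. For the difference they were 0.10 (all 412, no longer past the threshold), -0.58 (complement GTCA) and -0.48 (printed GTCA). With no centring, 0 probes were called lower for 6-4PP, and 321 higher and 0 lower for CPD, and the printed GTCA difference between antibodies lost its call (0.15).

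Quantile normalization left 52 probes called higher and 2 lower for 6-4PP, 11 higher and 5 lower for CPD, and 0 positive for the difference between antibodies. It ended the calls of complement GTCA (0.047) and printed GTCA (0.15) for 6-4PP, printed GTCA for CPD (0.20) and all 412 probes for the difference (0.14), and turned printed GTCA to -0.054 for the difference. It also ended the 6-4PP differences for the base after printed ATC (0.19), printed GTC (0.13) and complement ATC (0.094), TC minus TT on the complement after A (-0.25) and after G (0.018), and printed minus complement GTCA (0.098). For CPD it ended the base before printed TCA (0.081), the base after printed ATC (0.20) and printed minus complement ATCA (0.073). All 4 outer-base differences of ATCA with 6-4PP, the 6-4PP differences of TC from CT and CC after printed G and from CC after complement G, and the CPD differences of TC from CT (3) and from CC after printed A ended too, with the values given above. Of the antibody differences, the base after printed ATC turned to -0.013 and printed minus complement ATCA was 0.23, no longer past the threshold. The cause was not tested.

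With the dimmest 25 percent left out, which leaves 12 no-step probes, 135 probes were called higher and 0 lower for 6-4PP, 43 higher and 0 lower for CPD, and 113 positive for the difference. TC minus TT on the complement after A became 0.085 and the position difference of complement ATCA 0.12 for 6-4PP and 0.13 for the difference between antibodies. For CPD the base after printed ATC (0.11) and printed minus complement ATCA (0.089) lost their calls. Unadjusted intensity gave 40 higher and 1 lower for CPD, ended complement GTCA for CPD (0.052) and the base after printed GTC for 6-4PP (0.080), and turned TC minus TT on the complement after G to -0.068. Means in place of medians gave 0.023 for complement GTCA with CPD and 0.079 for the base after printed GTC with 6-4PP, both no longer called, and 0.14 for the position of printed ATCA with CPD. They also gave 0.13 for the base before complement TCA with CPD, now past the threshold. The outer 5′ base of printed GTCA in the difference between antibodies became -0.010 with means, -0.016 with unadjusted intensity and -0.050 in the regression. That regression, with G and C share and position, also gave 0.13 for the CPD base before complement TCA, then past the threshold. For the position differences the regression held the G and C share but not step position. With 6-4PP it gave 0.0013 for complement ATCA (limma adjusted p = 0.98) and 0.27 for printed ATCA (3.78e-07). With CPD printed ATCA had 0.12 (0.024). For the difference between antibodies printed ATCA had 0.15 (0.042) and complement ATCA -0.030 (0.70).

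On the linear scale, in intensity units, all 412 (158.5), complement ATCA (126) and complement GTCA (59.0) for CPD lost their calls. So did the base after printed GTC (117) and TC minus TT on the complement after G (148) for 6-4PP, and the base before printed TCA (220), the base after printed ATC (176) and printed minus complement ATCA (205) for CPD. Without moderation the base after printed GTC (0.093) and TC minus TT on the complement after G (0.11) for 6-4PP and printed minus complement ATCA for CPD (0.16) did not pass. With the arrays of 1 antibody alone, 2 probes were called lower for 6-4PP and 4 for CPD, and for CPD the base before complement TCA (0.053), the base after complement ATC (0.049) and printed minus complement GTCA (0.044) passed. With trend and robust moderation the CPD base after printed GTC passed (0.080). Paired sequences gave 0.12 for that difference, 0.080 for the base before complement TCA and 0.097 for the base after complement ATC with CPD, all past the threshold.

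The label numbers were also fitted as a replicate block. Same-numbered arrays of UV and non-UV groups did not deviate together (correlations -0.0032 to 0.00079), so the numbers were not taken as pairs. The block left 2 probes called lower for 6-4PP, let the CPD base after printed GTC pass (0.080) and changed no other of the calls the report leads with. Leaving out the steps within 3 bases of an end removed no probe.

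Leaving out 1 array at a time, the CPD count of higher calls ran from 24 to 68 and of lower calls from 4 to 9. The 6-4PP count of lower calls ran from 1 to 7, and negative calls for the difference from 0 to 3 (3 without 6-4PP non-UV replicate 1, 2 without 6-4PP non-UV replicate 2, 1 without CPD UV replicate 2). The CPD values of complement GTCA ran from 0.049 to 0.079 and of printed GTCA from 0.087 to 0.13. The base after the step ran from 0.12 to 0.16 for printed ATC with CPD, from 0.039 to 0.15 for printed GTC with 6-4PP and from 0.042 to 0.12 for printed GTC with CPD, which passed without CPD UV replicate 2 (0.12). TC minus TT after G ran from 0.081 to 0.13 on the complement and from -0.096 to -0.020 on the printed strand for 6-4PP.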
